A study of Mus musculus with 6 samples.

Results

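The 10 genes described here encode the core of the mouse inflammasomes: the sensors Nlrp3, Nlrc4, Naip2, Naip5, Naip6, Aim2 and Mefv, the adaptor Pycard, and the inflammatory caspases Casp1 and Casp4. They were chosen by function, with earlier results of these data known, and were found by Entrez gene ID among the 36528 gene IDs in the tables. All 10 were matched, and all 10 had enough reads to be tested. An inflammasome is a complex that a cytosolic sensor builds on meeting a microbial molecule or a sign of damage. The sensor recruits caspase-1, often through the adaptor ASC, the product of Pycard, and active caspase-1 matures the cytokines IL-1 beta and IL-18 and cleaves gasdermin D, which opens pores in the plasma membrane. Caspase-11, the product of mouse Casp4, binds lipopolysaccharide in the cytosol and cleaves gasdermin D itself.

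RNA was sequenced from HOXB-8 cells, a line derived from mouse bone marrow in which Hoxb8 immortalises myeloid progenitors, in 2 groups of 3 libraries. The IRF2_KO group received 1 guide (gRNA2) targeting Irf2, whose product belongs to the interferon regulatory factors (IRFs), DNA-binding proteins that switch interferon-responsive genes on or off. The Parental group kept wild-type Irf2 and received a control guide named Luc. Both groups share the HOXB-8 background, which the extraction notes call iMACs, and no stimulus, strain or age is given for either. The labels do not tell whether a line was 1 clone, nor whether replicate libraries were grown apart. P-values therefore speak only to differences among these 6 libraries, whose spread may be technical.

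Libraries held 29070160 to 34051219 counted reads in IRF2_KO and 33422590 to 39925038 in Parental, so 3 reads correspond to 0.0751 to 0.103 CPM (counts scaled to library size). Irf2 itself stood at 40.3, 37.0 and 40.1 CPM in the IRF2_KO libraries and at 41.1, 42.4 and 41.1 CPM in the Parental libraries (log2 fold change -0.08, SE 0.05, edgeR adjusted p = 0.209). A guide can disrupt a coding sequence without lowering the transcript, and counts per gene do not cover the cut site, so this level does not check the labels. Of the markers of myeloid progenitors, 12 of 15 were high enough to test, with Ctsg at 4195 ± 234 CPM in IRF2_KO and 3829 ± 165 CPM in Parental, whereas Meis1 had no read and Cd34 and Hoxa9 were too low to test. As background to the marker counts, 23.6% of all genes tested were higher in IRF2_KO and 23.6% lower by edgeR. Progenitor markers were lower in 7 of the 12 (58.3%) and higher in 2 (16.7%), so that most went the other way from the means of Ctsg. Their median log2 fold change was -0.48, with a summed level of 10425 to 11859 CPM in IRF2_KO and 12600 to 13603 CPM in Parental. Macrophage markers were higher in 11 of 13 tested (84.6%) and lower in none. Their summed level was 1923 to 1939 CPM in IRF2_KO and 701 to 715 CPM in Parental, while C1qb had no read in any library. Dendritic markers were higher in 5 of 5 tested (summed level 45.8 to 51.2 CPM in IRF2_KO and 18.5 to 19.4 CPM in Parental), neutrophil markers in 6 of 12 with 2 lower (16.7%; 493 to 522 CPM in IRF2_KO and 445 to 452 CPM in Parental), and none of 9 lymphocyte markers passed the filter. The part of these marker shifts in the results below was not tested. In bulk RNA, fewer cells of a type and less RNA per cell cannot be told apart.

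Promoter sequences from RefSeq (GRCm38.p6, each 250 bases before to 50 after an annotated transcript start, written 5′ to 3′ on the gene's strand, with position 0 at the start) were read for all 10 genes. They are shown for the genes with the largest differences and for the Naip family. IRF proteins bind repeats of GAAA. The full element, a pair of GAAA separated by any 2 bases and searched on both strands, stood in none of the 12 windows of the 10 genes and in 3.44% of the 32851 windows of the whole table. Its shorter core AANNGAAA, contained in every full element, stood in 6 of the 12 windows, those of Nlrp3, Naip6, Pycard and Casp4, and in 23.9% of all windows. The Casp4 windows overlap almost wholly and hold the same matches, so that by gene the core stood in 4 of 10 and the kappaB-like form, given next, in 2 of 10. A kappaB-like form, GGGA and CC with any 4 bases between them on either strand, stood in 3 of the 12 windows, the upstream window of Nlrp3 and both windows of Casp4, and in 20.7% of all windows. A match is a description of letters and not a bound site. The windows of Aim2 (chr1:173420354-173420653) and Naip5 (chr13:100247287-100247586) lie inside the gene spans given below. For these genes the sequence at the 5′ end of the span was not read.

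The windows of the adaptor, the most lowered of the 10, of caspase-11, the most raised, and of Naip6 are shown with each AANNGAAA match in capitals. The Pycard window is chr7:127993818-127994117, minus strand, with its match at -160 to -153. Casp4 is given at its upstream start (chr9:5308599-5308898, plus strand), with matches on the opposite strand at -186 to -179 and at 2 to 9 and with the kappaB-like form at -92 to -83. The Naip6 window is chr13:100316567-100316866, minus strand, with its match at -174 to -167.
Pycard: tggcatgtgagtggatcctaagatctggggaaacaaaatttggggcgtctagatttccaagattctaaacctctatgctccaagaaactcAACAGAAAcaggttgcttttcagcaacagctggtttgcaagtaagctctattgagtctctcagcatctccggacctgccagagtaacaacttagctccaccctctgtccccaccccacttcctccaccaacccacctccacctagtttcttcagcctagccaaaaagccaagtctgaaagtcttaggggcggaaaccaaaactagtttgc
Casp4: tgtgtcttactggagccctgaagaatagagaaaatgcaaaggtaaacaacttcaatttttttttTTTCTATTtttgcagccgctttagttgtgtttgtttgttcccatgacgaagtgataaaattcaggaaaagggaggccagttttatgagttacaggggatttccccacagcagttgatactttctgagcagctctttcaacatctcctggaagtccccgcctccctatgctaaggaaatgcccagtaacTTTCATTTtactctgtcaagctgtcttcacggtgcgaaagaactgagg
Naip6: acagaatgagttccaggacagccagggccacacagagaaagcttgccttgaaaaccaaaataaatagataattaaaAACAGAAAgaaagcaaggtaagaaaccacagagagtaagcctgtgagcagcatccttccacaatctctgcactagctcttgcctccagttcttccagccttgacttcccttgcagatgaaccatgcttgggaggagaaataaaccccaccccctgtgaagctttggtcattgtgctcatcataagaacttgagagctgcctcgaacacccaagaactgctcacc

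Within the Naip family the promoter sequences of Naip2 and Naip5 aligned over 134 bases without a gap and were 91.8% identical there, a stretch from -85 to 48 in Naip2 (chr13:100202074-100202207, minus strand) and from -92 to 41 in Naip5 (chr13:100247295-100247428, minus strand). The 11 bases that differ are in capitals. The best local alignments of the Naip6 window covered only 19 bases with Naip2 and 24 bases with Naip5.
Naip2: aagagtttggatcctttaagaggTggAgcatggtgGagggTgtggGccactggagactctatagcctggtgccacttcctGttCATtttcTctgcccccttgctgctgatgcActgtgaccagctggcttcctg
Naip5: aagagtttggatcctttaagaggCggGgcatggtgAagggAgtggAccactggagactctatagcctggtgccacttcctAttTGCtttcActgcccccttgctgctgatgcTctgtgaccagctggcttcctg

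**Figure D1:**
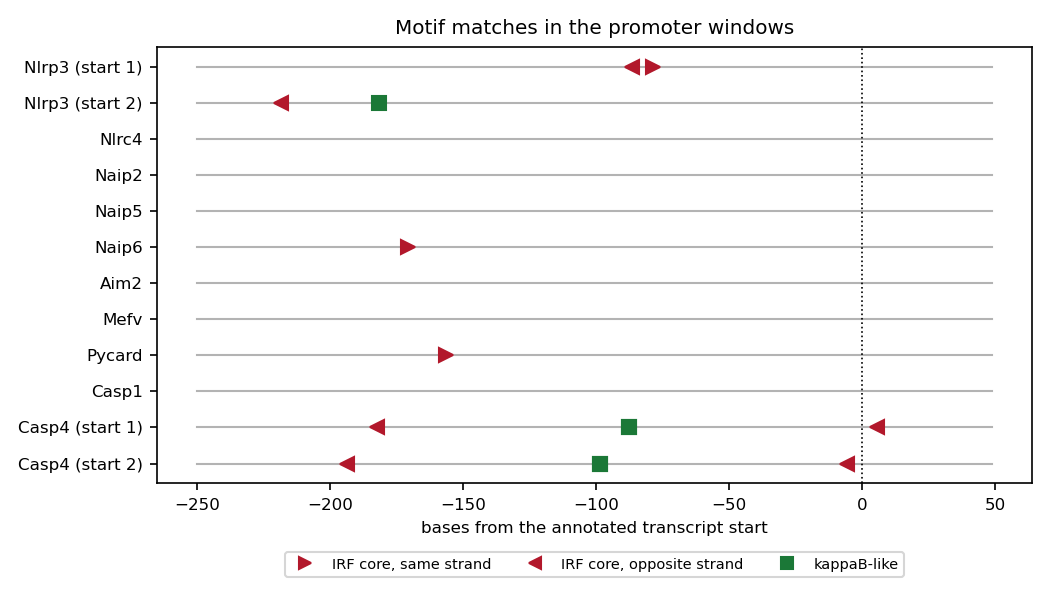
Positions of motif matches in the promoter windows of the 10 genes, in bases from the annotated transcript start (dotted line). Red triangles are the IRF core on the gene's strand (pointing right) or the opposite strand (pointing left), and green squares the kappaB-like form. Matches stand in the windows of Nlrp3, Naip6, Pycard and Casp4, and the windows read for the other 6 genes hold none.

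Setting IRF2_KO against Parental asks whether the levels of these transcripts depend on IRF2. The 10 genes did not move as a block. Pycard fell to 0.251-fold of its Parental level and Naip6 to 0.507-fold, Mefv to 0.760-fold, while Casp4 rose 2.26-fold and Naip2 rose 1.30-fold. The fold differences of the other 5 were between 1.03 and 1.19. By edgeR's quasi-likelihood test with Benjamini-Hochberg adjustment over 13353 genes, 5 of the 10 were higher and 3 lower, and Nlrp3 and Naip5 did not pass. The background is high: 23.6% of all genes tested were higher, 23.6% lower and 47.2% called in either direction. CPM of the 2 groups did not overlap for 7 of the 10, against 54.0% of all genes tested. The median log2 fold change of the 10 was 0.14, beside -0.01 for all genes, and their median absolute log2 fold change 0.32, beside 0.18. Only Casp4 passed the test with a rise of 2-fold or more (4.79% of all genes tested did), and no other gene of the 10 reached a 2-fold difference except Pycard, which was lower by that much (2.26% of all genes were). The count of 5 higher changed with the processing, and the calls of Nlrc4, Aim2 and Casp1 lay near the threshold. It was 2 without IRF2_KO 1, IRF2_KO 3, Parental 2 or Parental 3, where 23.4%, 20.1%, 20.7% and 20.5% of all genes tested were higher, 3 without Parental 1 (21.9%) and 4 without IRF2_KO 2 (23.1%). It was 2 with library size alone (20.9%), with limma on RPKM (22.7%) and at an adjusted p under 0.01 (18.5%), and 3 with DESeq2 (22.4%) and without a filter on low counts (15.1%). Against a change of 1.5-fold, 1 of the 10 was higher (5.38% of all genes) and 2 were lower (2.25%; 7.63% in either direction).

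**Figure D2:**
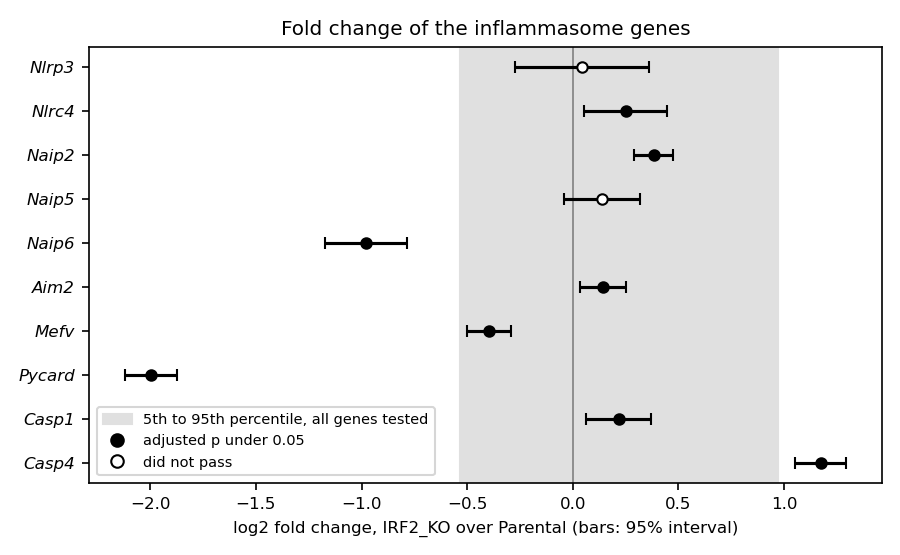
Log2 fold change of each of the 10 genes, IRF2_KO over Parental, with 95% intervals and filled points for an adjusted p under 0.05. The grey band spans the 5th to the 95th percentile of all genes tested (-0.53 to 0.97); Pycard (-2.00), Naip6 (-0.98) and Casp4 (1.17) lie outside it.

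The adaptor showed the largest difference of the 10. Pycard (Entrez gene 66824, chromosome 7, 127991373 to 127993867) encodes ASC, which links sensors with a pyrin domain, among them NLRP3, AIM2 and pyrin, to caspase-1 and polymerises into the speck seen in activated cells. It had 13.2, 14.5 and 14.2 CPM in the IRF2_KO libraries and 53.8, 54.7 and 59.1 CPM in the Parental libraries. The groups were far apart, with no value between 14.5 and 53.8 CPM. The log2 fold change was -2.00 (SE 0.06, edgeR adjusted p = 2.68e-14), and 2.27% of all genes tested had a larger absolute value. Behind it stood 1290 reads over the IRF2_KO libraries and 6351 over the Parental ones. In the GENCODE annotation a transcript of unsettled type, Gm45205, overlaps 599 bases of Pycard on the opposite strand, and 11.5% of the 50-base words of the Pycard transcripts recur in it. The longest GENCODE transcript of Pycard, 3800 bases, is longer than the gene span given above. Whether the shared words lie in the gene model that was counted was not checked. Whether counting used strand is not given in the sources used here, so reads of Pycard and Gm45205 may not be separable.

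Of the caspases, Casp4 rose strongly and Casp1 by little. Casp4 (Entrez gene 12363, chromosome 9, 5308849 to 5336791) had 37.3, 37.8 and 36.1 CPM in IRF2_KO and 16.8, 15.3 and 17.1 CPM in Parental. All IRF2_KO libraries were above all Parental ones (log2 fold change 1.17, SE 0.06, edgeR adjusted p = 3.34e-11), and 5.68% of all genes tested had a larger absolute change. Casp1 (Entrez gene 12362, chromosome 9, 5298517 to 5307281), whose start lies 10.3 kb before that of Casp4, had 27.8, 22.8 and 27.6 CPM in IRF2_KO and 23.7, 23.1 and 20.7 CPM in Parental. The Casp1 groups overlapped, since the second IRF2_KO library was below both of the higher Parental ones. Its rise was small (log2 fold change 0.22, SE 0.08, edgeR adjusted p = 0.0293) and depended on single libraries: the call was lost without IRF2_KO 1 (adjusted p = 0.0560), IRF2_KO 3 (0.139), Parental 2 (0.0509) or Parental 3 (0.148), with the log2 fold change at 0.16 to 0.30 over its alternatives and the adjusted p at 0.00115 to 0.148 over those other than the test against 1.5-fold. No 50-base word of Casp1 or Casp4 recurs in a transcript of another gene, so their unique counts are not shared with each other. Casp12, another gene of the caspase-1 family, had 1 read in all 6 libraries.

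Within each library, which is free of library scaling, the adaptor per caspase-1 and the balance of the caspases differed as well. The ratio of Pycard to Casp1 in reads per kilobase (RPKM, the authors' size-factor-adjusted values) was 0.338, 0.452 and 0.367 in IRF2_KO and 1.61, 1.68 and 2.03 in Parental. Casp4 over Casp1 was 1.39, 1.71 and 1.36 in IRF2_KO and 0.732, 0.687 and 0.856 in Parental. In IRF2_KO the caspase-11 transcript was thus the more abundant per length in every library, and in Parental that of caspase-1 was. The log2 ratios differed by -2.21 for Pycard over Casp1 and by 0.97 for Casp4 over Casp1, each with an exact two-sided permutation p = 0.1, the smallest that 3 against 3 libraries allow.

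**Figure D3:**
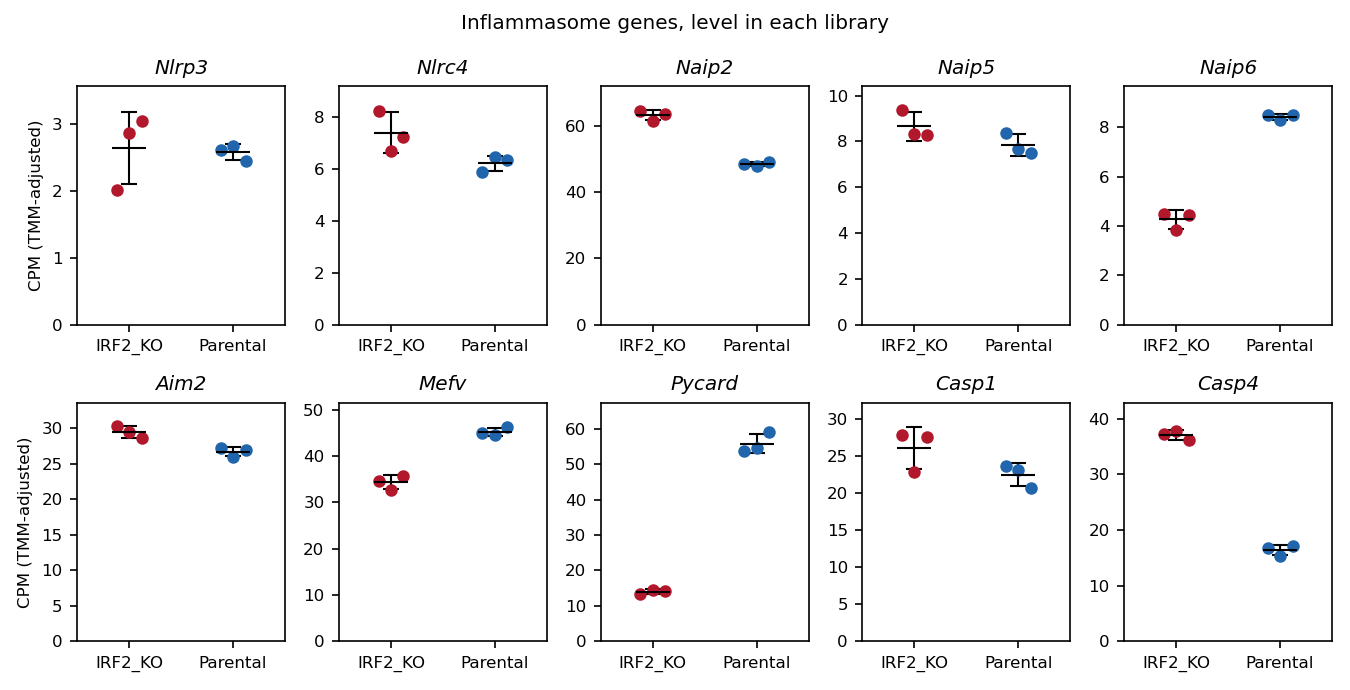
Level of each of the 10 genes in CPM in each library, IRF2_KO left of Parental, with mean and SD (n = 3 each); each axis starts at 0. Pycard, Naip6 and Mefv sit lower in every IRF2_KO library, Casp4 and Naip2 higher, while Nlrp3, Naip5 and Casp1 overlap.

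Transcripts of the NAIPs, the ligand-binding sensors that switch on NLRC4, went in different directions, and their genes adjoin on chromosome 13. Naip2 (Entrez gene 17948, 100144063 to 100202122), which in mouse binds the inner rod protein of bacterial type III secretion systems, had 64.4, 61.6 and 63.7 CPM in IRF2_KO and 48.6, 48.0 and 49.0 CPM in Parental. It rose in every IRF2_KO library (log2 fold change 0.38, SE 0.05, edgeR adjusted p = 2.80e-06). Naip6 (Entrez gene 17952, 100281121 to 100316616), a flagellin receptor, had 4.50, 3.84 and 4.46 CPM in IRF2_KO and 8.51, 8.28 and 8.50 CPM in Parental. It fell in every IRF2_KO library (log2 fold change -0.98, SE 0.10, edgeR adjusted p = 2.89e-07). Naip5 (Entrez gene 17951, 100211735 to 100250930), the other flagellin receptor, had 9.37, 8.33 and 8.26 CPM in IRF2_KO and 8.38, 7.69 and 7.48 CPM in Parental. Those groups overlapped and the difference did not pass (log2 fold change 0.14, edgeR adjusted p = 0.227), with a 95% interval from -0.04 to 0.32. Naip5 shares with Naip2 the near-identical promoter stretch shown above, and the Naip6 window read here does not hold it. The windows do not stand at like positions. That of Naip5 (chr13:100247287-100247586) lies inside its gene span, whereas those of Naip2 and Naip6 lie at the 5′ end of theirs. Sequence outside the windows was not searched, so whether Naip6 holds the stretch elsewhere is not known. A link between the stretch and the levels was not tested.

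The ratio of Naip6 to Naip2 in RPKM, computed after their values were seen, was 0.0496, 0.0442 and 0.0497 in IRF2_KO and 0.124, 0.123 and 0.123 in Parental (log2 difference -1.37, exact permutation p = 0.1, again the smallest possible). These genes are close copies. Of their 50-base transcript words, 19.1% of Naip2, 36.9% of Naip5 and 21.5% of Naip6 recur in another gene, Naip6 being the main partner of Naip5 (22.3%). Only uniquely aligned reads were counted, so each level, and how reads divide between copies, is uncertain. Naip1 had 3, 0 and 3 reads in IRF2_KO and 7, 7 and 5 in Parental and was too low to test, and Naip7 was not matched.

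Nlrc4 (Entrez gene 268973, chromosome 17, 74426255 to 74459144), which polymerises on an activated NAIP and recruits caspase-1 through its CARD domain, had 8.23, 6.69 and 7.22 CPM in IRF2_KO and 5.88, 6.44 and 6.32 CPM in Parental. The groups stood close without overlapping, 6.69 CPM in IRF2_KO against 6.44 CPM in Parental at their nearest. The rise only just passed (log2 fold change 0.25, SE 0.10, edgeR adjusted p = 0.0496). It was lost without IRF2_KO 1 (adjusted p = 0.207), IRF2_KO 3 (0.0874), Parental 1 (0.142), Parental 2 (0.0723) or Parental 3 (0.0847), and the adjusted p ranged from 0.0220 to 0.207 over its alternatives other than the test against 1.5-fold. In the annotation Nlrc4 and Naip2 each overlap a processed pseudogene on their own strand, CT033749.1 over 355 bases and Gm18413 over 655 bases.

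Among the sensors that signal through ASC, Mefv fell, Aim2 was slightly higher and Nlrp3 did not pass. Mefv (Entrez gene 54483, chromosome 16, 3706974 to 3718211) encodes pyrin, which responds to inactivation of the GTPase RhoA by bacterial toxins. It had 34.6, 32.7 and 35.8 CPM in IRF2_KO and 45.0, 44.5 and 46.2 CPM in Parental, groups that did not overlap (log2 fold change -0.40, SE 0.05, edgeR adjusted p = 8.57e-06). Aim2 (Entrez gene 383619, chromosome 1, 173349547 to 173466040), which binds double-stranded DNA, had 30.4, 29.5 and 28.6 CPM in IRF2_KO and 27.2, 26.0 and 26.9 CPM in Parental. Each IRF2_KO library was above each Parental one, but by little (log2 fold change 0.14, SE 0.06, edgeR adjusted p = 0.0466). The Aim2 call was lost whichever library was left out: IRF2_KO 1 (adjusted p = 0.109), IRF2_KO 2 (0.0808), IRF2_KO 3 (0.0717), Parental 1 (0.0537), Parental 2 (0.153) or Parental 3 (0.0967). Over all alternatives other than the test against 1.5-fold the adjusted p was 0.0378 to 0.153. Cadm3, which overlaps Aim2 on the opposite strand, had no read in any library.

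Nlrp3 (Entrez gene 216799, chromosome 11, 59541569 to 59566955), the sensor of potassium loss and many forms of membrane damage, was the scarcest of the 10 in CPM. It had 60, 82 and 102 reads in IRF2_KO, or 2.02, 2.86 and 3.03 CPM, and 103, 90 and 98 reads in Parental, or 2.60, 2.67 and 2.44 CPM. The IRF2_KO libraries lay on both sides of the Parental ones. The log2 fold change was 0.04 (SE 0.16, edgeR adjusted p = 0.847), and its 95% interval of -0.27 to 0.36 does not reach the changes of Pycard or Casp4.

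Per gene length the order of the levels changed at the top. In IRF2_KO the order by mean RPKM was Casp4 (24.7 ± 0.619), Casp1 (16.8 ± 1.75), Naip2 (12.7 ± 0.230), Mefv (9.36 ± 0.387), Pycard (6.41 ± 0.342), Aim2 (4.22 ± 0.116), Naip5 (1.57 ± 0.106), Nlrc4 (1.54 ± 0.155), Nlrp3 (0.633 ± 0.132) and Naip6 (0.610 ± 0.0507; SD, n = 3). In Parental it was Pycard (25.4 ± 1.24), Casp1 (14.4 ± 1.04), Mefv (12.3 ± 0.235), Casp4 (10.9 ± 0.626), Naip2 (9.72 ± 0.107), Aim2 (3.80 ± 0.0930), Naip5 (1.42 ± 0.0877), Nlrc4 (1.29 ± 0.0585), Naip6 (1.20 ± 0.0197) and Nlrp3 (0.613 ± 0.0290). Pycard stood at rank 5 in IRF2_KO and at rank 1 in Parental, and Casp4 at rank 1 in IRF2_KO and at rank 4 in Parental. Neighbours in the order overlapped between libraries only in IRF2_KO, for Naip5 with Nlrc4 and for Nlrp3 with Naip6. The top gene stood 40.6-fold above the bottom gene in IRF2_KO and 41.5-fold in Parental, and 21.3% of all genes tested in IRF2_KO were lower than Naip5, 12.7% lower than Nlrp3 and 74.2% lower than Casp4.

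**Figure D4:**
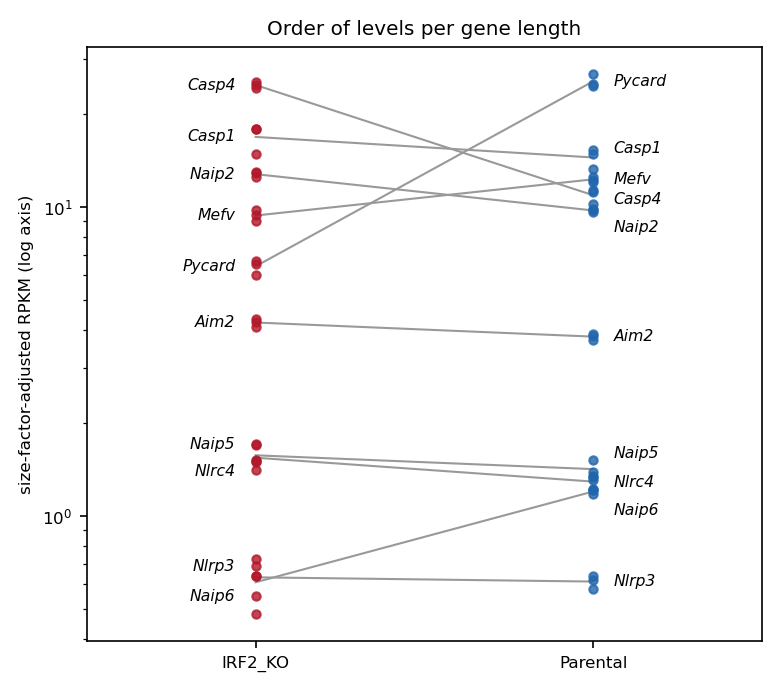
Size-factor-adjusted RPKM of the 10 genes on a log axis, IRF2_KO left and Parental right; points are libraries and lines join the group means. Pycard crosses 4 other genes between the groups, with 6.41 RPKM in IRF2_KO and 25.4 RPKM in Parental, and Casp4 has 24.7 RPKM in IRF2_KO and 10.9 RPKM in Parental.

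Genes beside the 10 on the chromosome were compared next. Of 26 neighbours (up to 2 nearest tested protein-coding genes on each side of each gene, with none before Mefv), 8 were higher, 6 lower and 12 did not pass, and 53.8% were called, near the 47.2% of all genes tested. The median log2 fold change of the neighbours was -0.02. Beside Pycard, the lowered adaptor gene, Itgam, an integrin subunit of myeloid cells listed here with the macrophage markers, had 247 ± 9.25 CPM in IRF2_KO and 130 ± 2.54 CPM in Parental (log2 fold change 0.93, SE 0.04, edgeR adjusted p = 6.50e-12). Its neighbour Itgax, a dendritic marker, rose by 1.41 on the log2 scale. Beside Aim2, the DNA sensor genes of the Ifi200 family rose far more than Aim2 did, Ifi206 to 6.72 ± 1.05 CPM in IRF2_KO against 0.151 ± 0.0269 CPM in Parental (log2 fold change 5.46, or 3.72 on log2(RPKM + 0.1)) and Ifi209 to 11.4 ± 0.619 CPM in IRF2_KO against 3.88 ± 0.218 CPM in Parental.

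Of 16 further sensors, adaptors and caspases, 15 were matched and 9 tested, of which 4 were higher (44.4%, beside 23.6% of all genes tested) and 2 lower (22.2%, beside 23.6%), with a median log2 fold change of 0.07 beside -0.01. The lower share was near the background, and the lower count was 1 without Parental 1. This list and the lists below were chosen with earlier results of these data known, so their shares are a description only. Nod1 and Nod2, which sense fragments of bacterial peptidoglycan, rose to 46.0 ± 1.504 CPM in IRF2_KO against 30.7 ± 1.09 CPM in Parental and to 2.07 ± 0.114 CPM in IRF2_KO against 0.937 ± 0.0962 CPM in Parental (log2 fold changes 0.59 and 1.13). Ifi209, listed under its synonym Pyhin1, rose as given above, and Card9, an adaptor of fungal recognition receptors, fell by 0.24 on the log2 scale (SE 0.05, edgeR adjusted p = 0.000971). Nlrp6 and Nlrp9b had no read.

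Downstream of the caspases the main difference was in the pore-forming substrate. Of 17 substrates, pores and repair factors, 12 were tested, 1 was higher and 2 were lower (median log2 fold change -0.02), so that 25.0% were called, beside 47.2% of all genes tested. The higher count was 2 without IRF2_KO 1 or Parental 2 and 0 without IRF2_KO 2, and the lower count was 1 without IRF2_KO 1, Parental 2 or Parental 3. Gsdmd, the shared target of both caspases, was at 2.25 ± 0.271 CPM in IRF2_KO and 74.6 ± 5.09 CPM in Parental (log2 fold change -5.05, SE 0.09, edgeR adjusted p = 5.59e-18). The cytokine gene Il18 was scarce, with 11, 16 and 12 reads in IRF2_KO and 8, 4 and 6 in Parental (log2 fold change 1.40, SE 0.43, edgeR adjusted p = 0.0121). That call was lost without IRF2_KO 2, and the value was 0.87 on log2(RPKM + 0.1). Il1b, looked at after its values were seen, had at most 5 reads in any library and was too low to test. Hmgb1, a nuclear protein released by dying cells, fell by 0.42 on the log2 scale (edgeR adjusted p = 0.0180), a call lost without IRF2_KO 1, Parental 2 or Parental 3. Chmp4b, of the membrane repair machinery, did not pass (log2 fold change 0.10, edgeR adjusted p = 0.0561).

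Genes listed as priming or activating sensors were mostly higher. Because the list was chosen with earlier results of these data known, its share beside all genes tested is a description only. Of 38 tested, 22 were higher (57.9%, beside 23.6% of all genes tested) and 1 was lower, with a median log2 fold change of 0.18 beside -0.01 for all genes. The lower count was 3 without IRF2_KO 2 and 2 without Parental 1. Against a change of 1.5-fold, 10 of the 38 were higher, beside 5.38% of all genes tested, and 0 were lower. The genes of this list with the smallest adjusted p were guanylate-binding proteins, which in mouse macrophages expose bacterial lipopolysaccharide and DNA to caspase-11 and AIM2. Gbp5 had 142 ± 3.75 CPM in IRF2_KO and 0.683 ± 0.210 CPM in Parental, and Gbp2 had 50.2 ± 1.36 CPM in IRF2_KO and 0.230 ± 0.102 CPM in Parental (log2 fold changes 7.72 and 7.75, or 7.20 and 6.72 on log2(RPKM + 0.1)). Gbp3 and Gbp7 rose by 6.71 and 4.55 on the log2 scale. Of the partners of single sensors, named after their values were seen, P2rx7, the ATP-gated channel upstream of NLRP3, rose to 8.73 ± 0.0834 CPM in IRF2_KO against 2.49 ± 0.187 CPM in Parental, Nek7, the kinase that binds NLRP3, rose by 0.22 on the log2 scale, and Pstpip1, a partner of pyrin, by 0.27.

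Genes known to restrain inflammasomes or IL-1 were higher in 13 of 23 tested (56.5%, beside 23.6% of all genes tested) and lower in 3 (13.0%, beside 23.6%), with a median log2 fold change of 0.25 beside -0.01. Against a change of 1.5-fold, 5 of the 23 were higher, beside 5.38% of all genes tested, and 0 were lower. The shares of this list and of the IL-1 receptor family are likewise a description only, since both were chosen with earlier results known. Trim30a, which restrains NLRP3 in mouse, had 8.48 ± 0.744 CPM in IRF2_KO and 0.130 ± 0.0603 CPM in Parental (log2 fold change 5.97, SE 0.21, or 4.04 on log2(RPKM + 0.1)). Usp18, a protease that removes ISG15 and dampens interferon signalling, rose by 6.13 on the log2 scale. Il1r2, a decoy receptor for IL-1, had 105 ± 2.36 CPM in IRF2_KO and 51.0 ± 0.802 CPM in Parental, and Fbxl2, an F-box protein, 78.8 ± 3.01 CPM in IRF2_KO and 32.6 ± 1.66 CPM in Parental. In the IL-1 receptor family 3 of 8 tested genes were higher (37.5%, beside 23.6% of all genes tested) and 2 lower (25.0%, beside 23.6%), with a median log2 fold change of 0.03. The lower share was near the background, and the lower count was 0 without IRF2_KO 3 and 1 without IRF2_KO 1, IRF2_KO 2, Parental 2 or Parental 3. The kinase gene Irak2 rose by 0.70 on the log2 scale, Il18rap, a chain of the IL-18 receptor, by 0.27, and Il1rap, the shared chain of IL-1 receptors, fell by 0.18, a call lost without IRF2_KO 3. Traf6, a ubiquitin ligase downstream of these receptors, differed by 0.13, a call lost without IRF2_KO 1, IRF2_KO 3, Parental 2 or Parental 3. The macrophage markers listed above were higher in the same libraries as these lists.

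**Figure D5:**
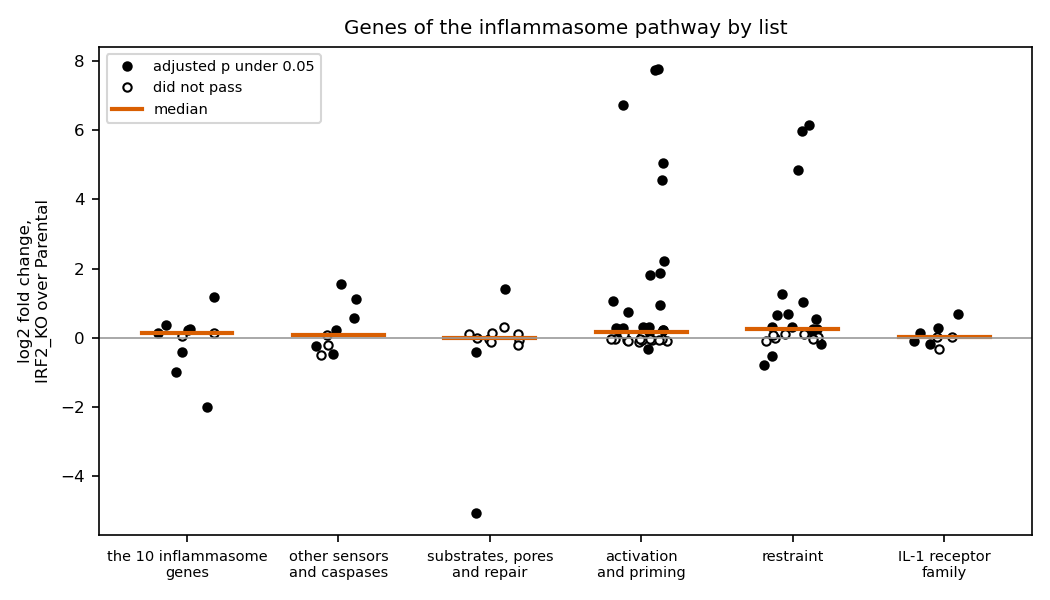
Log2 fold change, IRF2_KO over Parental, of every tested gene of the 10 and of 5 pathway lists; filled points have an adjusted p under 0.05 and orange bars are medians. The medians lie between -0.02 and 0.25, while single genes run from -5.05 (Gsdmd) to 7.75 (Gbp2).

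The genes whose pattern over the 6 libraries was most like that of Pycard or of Casp4 were found by the Euclidean distance of centred log2 CPM, among the 5527 genes that passed the test and averaged 2 CPM or more. Nearest to Pycard were Cbx6, a Polycomb protein (distance 0.106, 15.7 ± 0.854 CPM in IRF2_KO and 60.3 ± 1.68 CPM in Parental), Trim9, a ubiquitin ligase (0.140), and Tap1, a subunit of the peptide transporter for MHC class I (0.178). Nearest to Casp4 were Ccdc152 (0.0932, 40.6 ± 1.04 CPM in IRF2_KO and 18.2 ± 0.302 CPM in Parental), Prom1, a surface glycoprotein (0.110), and Csta2, a protease inhibitor of the stefin family (0.110). Ccdc152 overlaps the end of Selenop on the opposite strand in the annotation, so its reads are uncertain. With 2 groups such a distance reflects mainly the size of the group difference.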

How the data were processed

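RNA was measured in 3 IRF2_KO and 3 Parental libraries, grouped by the group label; replicates are numbered in record order and pair nothing. Per the labels' protocols libraries came from a stranded kit for total RNA, although the molecule is labelled as polyA RNA. The submitters' processing notes name GSNAP and the GRCm38 build; versions, annotation and use of strand were not given in the sources used here. The authors' counts are, per the file headers, whole reads aligned uniquely to a gene model, and the authors' second value is a size-factor-adjusted RPKM. Between libraries, RPKM per count differed by the same factor over the 10995 genes with 50 or more reads in every library. The measure used left out the most extreme genes at each end.

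The test was edgeR 4.0.16 in R 4.3.3 on the deposited counts (filterByExpr, TMM factors 0.987 to 1.02, robust quasi-likelihood F-test, Benjamini-Hochberg adjustment over all 13353 genes tested, threshold 0.05). The SE of a log2 fold change was taken from its F statistic. CPM are TMM-adjusted, given as mean ± SD (n = 3). RPKM served for levels across genes, ratios and limma 3.58.1 on log2(RPKM + 0.1). DESeq2 1.42.0, limma-voom, other scalings, filters and thresholds, and leaving out each library were the alternatives. The fit was also run on simulated counts with known changes. Those counts were drawn with the dispersions of the fit itself and as independent libraries. That run therefore cannot check whether the 6 libraries are independent. Names came from RefSeq (31049 IDs) and GENCODE M21, and promoter alignments used Biopython 1.88.

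The 10 genes, the lists and the naming rule were chosen with earlier results of these data known. The rule names the 10 genes, Irf2, up to 4 genes per pathway list and of the neighbours with the smallest adjusted p, up to 3 markers per list by level, and 3 genes nearest in pattern to Pycard and to Casp4; others were named after their values were seen.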

Additional observations from a re-analysis of the deposited data

How the results depend on the processing

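All 10 genes kept the direction of their log2 fold change under the 16 alternatives, except Nlrp3, which changed sign in 2 of them (-0.08 to 0.21) and was called in none. Pycard (-2.03 to -1.95), Casp4 (1.13 to 1.20) and Naip6 (-1.01 to -0.87) kept their call in all 16, and Mefv (-0.43 to -0.36) and Naip2 (0.35 to 0.40) in all but the test against 1.5-fold. The calls of Nlrc4 and Aim2 were lost in 12 alternatives each and that of Casp1 in 8. The count of the 10 that were higher, 5, was therefore 2 with library size alone, with limma on RPKM and with an adjusted p under 0.01, 3 with DESeq2 and without a filter, 1 with the test against 1.5-fold, and 2 to 4 with a library left out. The count that were lower stayed at 3 with each library left out. With the test against 1.5-fold (7.63% of all genes called) 718 genes were higher and 301 lower, against 3146 and 3150. Leaving out a library gave 2717 to 3158 higher and 2539 to 3099 lower. The log2 ratio differences ranged over the left-out libraries from -2.33 to -2.11 (Pycard over Casp1), 0.86 to 1.06 (Casp4 over Casp1) and -1.40 to -1.31 (Naip6 over Naip2). Of 30 other genes named by the rule, 21 kept their call in every alternative that tested them. No paired analysis was possible because the labels give no replicate numbers. Alternatives for the pathway lists and for Naip6 over Naip2 were chosen after seeing the data. Il1b, Naip1 and Casp12 had too few reads to test. In the IL-1 receptor family the count of lower genes, 2, changed by more than 1.5 times in 12 of the 16 alternatives (0 to 2). With the test against 1.5-fold (5.38% of all genes higher) the count of higher genes in that family was 0. For the further sensors, adaptors and caspases that count was 2.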
